A study of Homo sapiens with 6 samples.

Results

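The 48 genes described here encode the factors that start, elongate and end protein synthesis on cytosolic ribosomes, leaving out EIF6 itself. They were taken by symbol from the table of expected counts, which holds 59251 gene rows, and all 48 had a row. Of these, 47 had enough reads to be tested, and GSPT2, an intronless copy of the release factor gene GSPT1, was too low, at 2, 2 and 12 counts in the mutant libraries and 0, 4 and 4 in the wild-type ones. The RNA came from HCT116, a human colorectal carcinoma cell line. The mutant group (MUT, 3 libraries) was homozygous for the N106S substitution in eIF6, introduced by CRISPR/Cas9 editing and kept as clones, whose number the labels do not give. The other group (WT, 3 libraries) was unedited HCT116 of wild-type genotype, and cells of both groups were cultured to 60 to 70% density, with no drug treatment named in the labels. Whether the replicates of a group came from different cultures or clones is not in the labels, so a p-value here speaks of the spread among these libraries, and that spread may be technical.

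Translation starts when eIF2 brings the initiator tRNA to the small ribosomal subunit, with eIF1, eIF1A and the large scaffold eIF3, while eIF4F recruits the capped mRNA. eIF5B then joins the large subunit, the eEF1 and eEF2 proteins drive elongation, and eRF1 with eRF3 ends it. eIF6 binds free large subunits and keeps them from joining small ones before time. Many mRNAs of the translation machinery begin with a C and a run of pyrimidines, the 5′ terminal oligopyrimidine (TOP) motif, through which mTOR signalling controls their use by ribosomes. A library of total RNA measures the amount of an mRNA and not its translation.

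Total counts were 53986494 to 80146608 in the MUT libraries and 63951768 to 87656970 in the WT libraries, most of them from abundant noncoding RNAs. Without these, 11019157 to 19667760 counts remained in MUT and 10103022 to 17717049 in WT, and the 48 factors took 2.04 to 2.28% of them in MUT and 1.98 to 2.65% in WT. MUT replicate 2 and WT replicate 1 stood apart, with 3.91% and 1.16% of their counts on nuclear-encoded ribosomal RNA rows, against at most 0.234% in the other libraries. EIF6 mRNA stood at 36.6, 30.6 and 35.6 CPM (counts scaled to a common library size) in MUT and at 43.2, 47.7 and 47.3 in WT, which does not check the label, because the edit changes an amino acid. Of the epithelial markers, KRT8, KRT18, KRT19, CLDN7 and EPCAM were expressed in every library, while CEACAM5 had no count and VIL1 at most 6. CDH1 was low, at 31, 23 and 14 unscaled counts in MUT and 54, 35 and 37 in WT. CLDN7 had 930, 953 and 670 unscaled counts in MUT, against 1356, 1345 and 837 in WT. Those of KRT8 were 11265, 14725 and 8741 in MUT, against 7937, 9492 and 5004 in WT. The 6 fibroblast markers summed to 1.61 to 2.62 CPM in MUT and 0.592 to 3.05 in WT, and PTPRC, CD3E and HBB of the 6 blood markers were at 0 in all libraries.

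No factor was called at an adjusted p below 0.05 in edgeR's quasi-likelihood test with Benjamini-Hochberg adjustment, against 1.91% of the 14808 genes tested (283 genes, 0.986% higher and 0.925% lower in MUT). The lowest adjusted p was that of EIF4A2 in edgeR, 0.0717. DESeq2 called 4 factors, all lower in MUT (EEF1D, EIF3F, EIF4A2 and EIF4EBP1), beside 5.99% of the genes it gave an adjusted p (3.23% lower in MUT). At an unadjusted p below 0.05 stood 12 of the 47 factors, 5 higher and 7 lower in MUT, which is 25.5% beside 19.6% of all genes (9.79% higher and 9.84% lower). The CPM of the groups did not overlap for 18 factors, 8 higher and 10 lower in MUT, which is 38.3% beside 26.1% of all genes (12.8% higher and 13.4% lower). The median log2 fold change, MUT over WT, was -0.04 over the factors and -0.01 over all genes. Without MUT replicate 2, 0 factors and 2.9% of 15262 genes were called, 11 factors had an unadjusted p below 0.05 (3 higher and 8 lower in MUT, beside 19.4% of all genes, 9.75% higher and 9.63% lower), and the factors' median was -0.07. In bulk RNA, fewer cells that express a gene and less RNA per cell cannot be told apart.

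All CPM and log2 fold changes below are relative to TMM-scaled library sizes, a scaling that puts the typical gene near 0. With library size as the only scaling the median over all tested genes was 0.53 and 1 of the 47 factors lay below 0, so that every direction given here is one relative to the other genes. Against that shifted median 24 factors were below and 23 above.

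**Figure D1:**
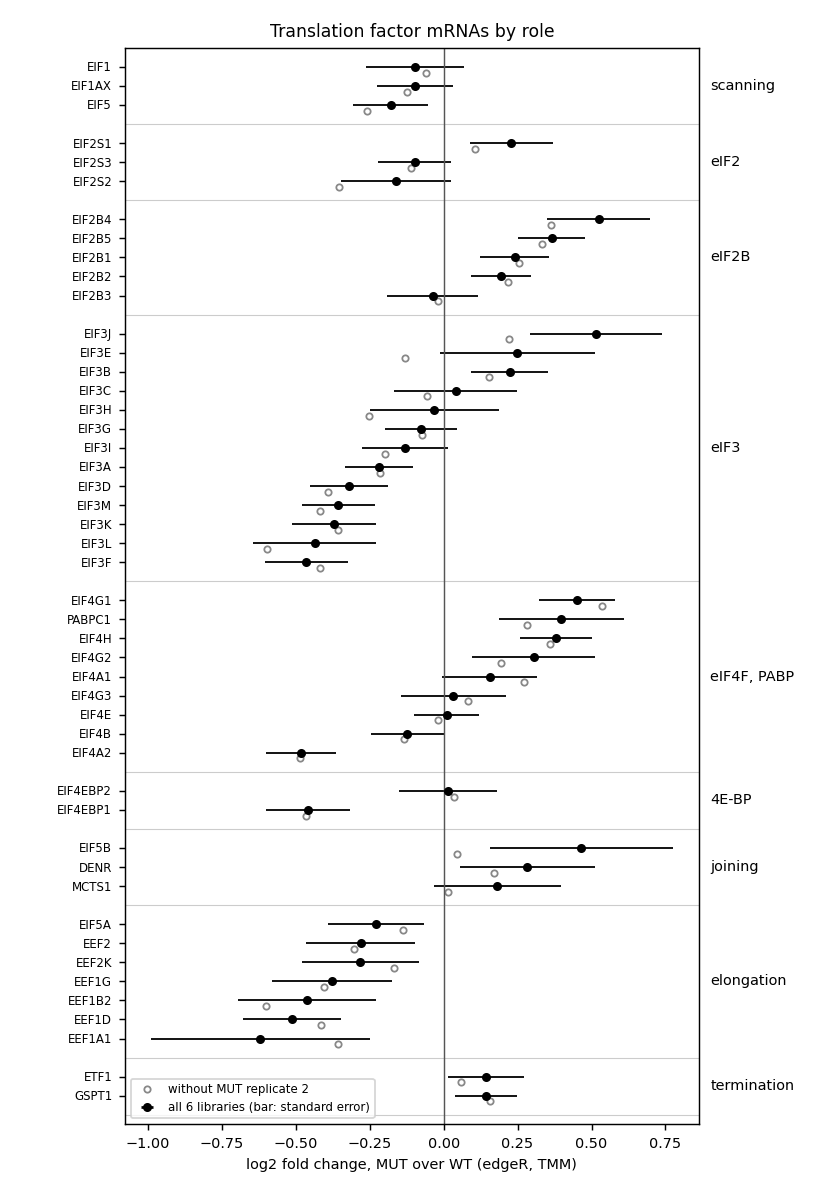
Log2 fold change (MUT over WT, horizontal axis) of each of the 47 tested factors, grouped by role, with its standard error as a bar and the value without MUT replicate 2 as an open circle. Elongation factors lie left of 0 and eIF2B subunits, with the exception of EIF2B3, right of it; with library size alone the median gene sits at 0.53 in place of 0.

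The annotated transcription starts of the factors are shown first, and the values are then set beside them, in a grouping chosen after values had been seen. Of the 48 factors, 39 matched the RefSeq promoter table (GRCh38.p14), and 10 of these (25.6%) had a start at a C followed by at least 4 pyrimidines (C or T) on the gene's strand. The same letters began 7.31% of the tested genes in that table and 4.07% of all 35116 starts. Each line gives 10 bases before the start and 20 from it, 5′ to 3′, with the pyrimidine run at the start in capitals.
EEF1A1 (chr6:73521013-73521042, minus strand): cgtgaacgttCTTTTTCgcaacgggtttgc
EEF1B2 (chr2:206159885-206159914, plus strand): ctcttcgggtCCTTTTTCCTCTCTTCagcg
EEF2 (chr19:3985444-3985473, minus strand): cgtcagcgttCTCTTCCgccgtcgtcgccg
EIF2S3 (chrX:24054946-24054975, plus strand): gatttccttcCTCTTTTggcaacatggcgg
EIF3D (chr22:36529147-36529176, minus strand): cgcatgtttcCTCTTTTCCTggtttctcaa
EIF3F (chr11:7987327-7987356, plus strand): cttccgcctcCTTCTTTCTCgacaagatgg
EIF3K (chr19:38619178-38619207, plus strand): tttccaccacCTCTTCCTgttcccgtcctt
EIF3M (chr11:32583821-32583850, plus strand): gcccagttccCTTTTCCggtcggcgtggtc
EIF4A2 (chr3:186783567-186783596, plus strand): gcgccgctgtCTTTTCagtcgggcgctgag
EIF4B (chr12:53006446-53006475, plus strand): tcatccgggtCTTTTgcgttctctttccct
The genes EEF1D, EIF2S2, EIF3A, EIF3E, EIF3G, EIF3H, EIF3L, EIF4EBP1 and PABPC1 were not matched.

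The 10 factors with a pyrimidine start all had a log2 fold change below 0 under TMM scaling, with a median of -0.36 and a range of -0.62 to -0.10. Of these, 5 had non-overlapping groups, lower in MUT (beside 19.97% of the other genes with such a start). An unadjusted p below 0.05 in edgeR, with lower values in MUT, was also seen for 5, beside 125 of the 796 other genes. The sets differ, as EEF2 was without overlap but had an unadjusted p of 0.164, and EIF3D had one below 0.05 but overlapped. Of the 28 tested factors with another start, 20 lay above 0 and their median was 0.15. Their groups did not overlap for 8 higher and 2 lower in MUT, which is 28.6% and 7.14%, beside 13.7% and 13.1% of the other genes with another start. Without MUT replicate 2 the medians were -0.37 and 0.07, and with library size alone both medians were above 0, at 0.17 and 0.70, on either side of the all-gene median. Outside the factors, 484 of 796 genes with a pyrimidine start lay below 0 (median -0.09), and the 10187 genes with another start had a median of 0.00. A list of 10 factors known for TOP mRNAs (EEF1A1, EEF1B2, EEF1D, EEF1G, EEF2, EIF3E, EIF3F, EIF3H, EIF4B and PABPC1) had 8 below 0 and a median of -0.33, against 0.01 for the other 37 tested factors. The 2 above 0 were PABPC1 (0.40) and EIF3E (0.25, and -0.13 without MUT replicate 2). Neither was matched to a start, so neither could enter the grouping by start. EEF1D (-0.51) and EIF3H (-0.03) of this list were not matched either. EEF1G (-0.38), also of this list, counted among the factors with another start. The grouping by start was chosen after values had been seen, and it is given without a test.

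**Figure D2:**
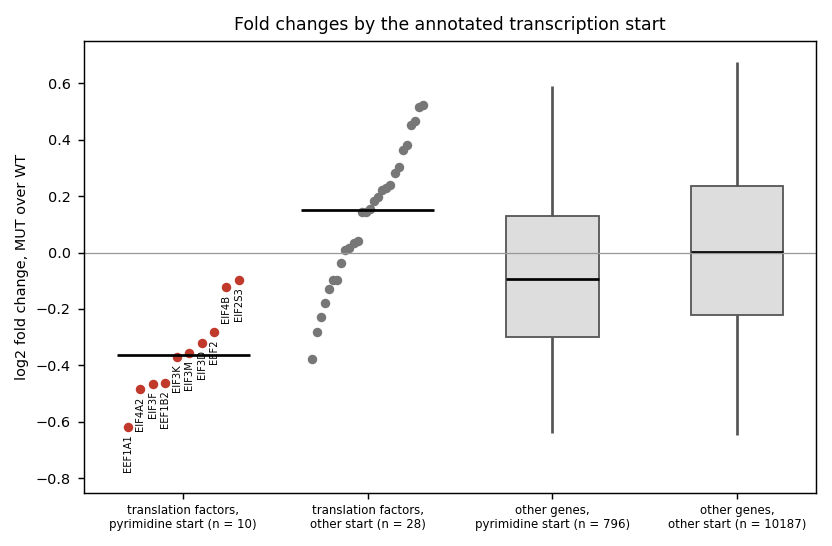
Log2 fold change (MUT over WT, TMM scaling) of factors with a pyrimidine start (red, n = 10) and with another start (grey, n = 28), each with its median, beside boxes for the other tested genes with either start (box, quartiles; line, median; whiskers, 5th to 95th percentile). The red points all lie below 0 and the grey ones spread to both sides; with library size alone all groups move up and the medians of the factors become 0.17 and 0.70.

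Mean level moved with the fold change as well. Across the 47 factors, whose points share the same 6 libraries, Spearman's rho of the mean CPM and the log2 fold change was -0.545, and within the 28 with another start it was -0.353, against -0.033 across all 14808 genes. The lowest of the factors with a pyrimidine start averaged 20.5 CPM. At or above that level were 6 factors with another start, 4 of them below 0, with a median of -0.11. Outside the factors and above the same level, 134 genes with a pyrimidine start had a median of -0.24 and 671 genes with another start one of -0.13. The parts of level and start in the factors' values were not tested.

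Elongation factors made up most of the mRNA of the group. As a share of the summed TPM of the 48 factors, a level per transcript length, they took 66.3% in MUT and 70.8% in WT on average. EEF1B2, which encodes a nucleotide exchange subunit of eEF1, held 20.3% ± 2.7 of the TPM in MUT and 22.3% ± 1.4 in WT (SD, n = 3 each). EEF1G, a structural subunit of the same complex, held 18.01% ± 0.60 in MUT and 18.6% ± 1.2 in WT. EEF1A1, which delivers aminoacyl-tRNA to the ribosome, followed at 14.2% ± 4.8 in MUT and 16.8% ± 4.3 in WT, a value that depends on how reads were divided with its pseudogenes. By the SD between libraries, these 3 neighbours in the order do not differ beyond their spread, with the exception of EEF1B2 and EEF1G in WT. Within every library, however, the TPM of EEF1B2 was above that of EEF1G. In MUT it was 115.09, 297.64 and 119.67 for EEF1B2, against 106.98, 237.61 and 114.32 for EEF1G. The lowest mean share of the tested factors was that of the subunit-joining GTPase gene EIF5B, at 0.00949% in MUT and 0.00551% in WT of the TPM. EEF2K had 0.00953% in MUT and 0.00940% in WT, so that both genes were nearly equal in MUT. The TPM behind these shares were close to the last deposited digit, so the shares are coarse. In MUT they were 0.04, 0.18 and 0.05 for EIF5B, highest in MUT replicate 2, and 0.06, 0.1 and 0.07 for EEF2K. In WT they were 0.03, 0.05 and 0.03 for EIF5B and 0.05, 0.07 and 0.06 for EEF2K.

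**Figure D3:**
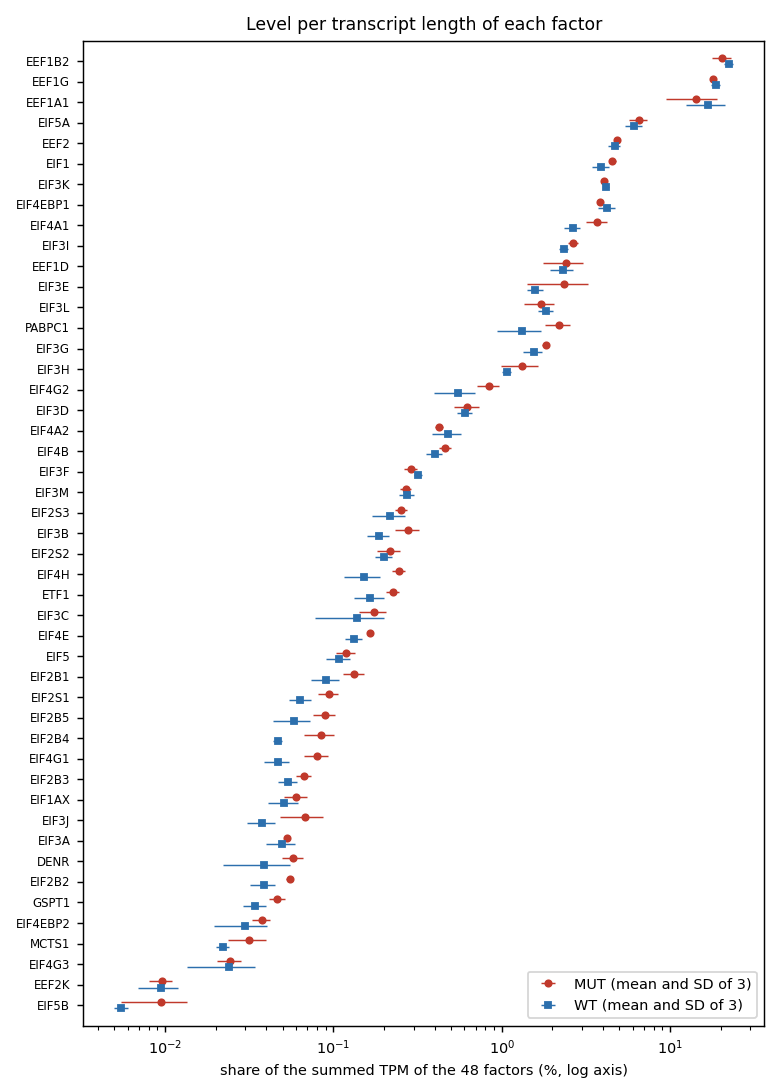
Share of the summed TPM of the 48 factors held by each tested factor (percent, log axis), as mean and SD of 3 MUT (circles) and 3 WT (squares) libraries. The order runs from EEF1B2, above 20% in both groups, to EIF5B, under 0.01% in both, and the SD bars of the groups overlap for most factors.

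All 7 elongation factors had log2 fold changes below 0 under TMM scaling, from -0.62 to -0.23, with a median of -0.38 (-0.36 without MUT replicate 2). None passed the test, 4 had non-overlapping groups, lower in MUT (EEF1D, EEF1G, EEF2 and EIF5A), and EEF1D alone had an unadjusted p below 0.05. Of all genes tested, 13.4% had non-overlapping groups that were lower in MUT. With library size alone all 7 lay below the all-gene median, and 1 below 0. EEF1D, another exchange subunit of eEF1, had 134, 109.9 and 127 CPM in MUT, against 161, 171 and 197 CPM in WT. Its highest MUT library thus lay below its lowest WT library, at a log2 fold change of -0.51 ± 0.17 (SE) with an adjusted p of 0.137 in edgeR. DESeq2 gave EEF1D an adjusted p of 0.0116, and over all alternatives its adjusted p ranged from 0.0116 to 0.989 (edgeR, DESeq2 or limma).

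EEF1B2 stood at 338, 427 and 295 CPM in MUT and at 405, 596 and 461 CPM in WT, where the groups overlapped at the second MUT library (log2 fold change -0.46 ± 0.23 SE, adjusted p 0.320 in edgeR). EIF5A, whose hypusine-bearing protein helps ribosomes past difficult stretches, had 193, 165 and 191 CPM in MUT, against 212, 222 and 209 CPM in WT. These groups did not overlap, but the difference of -0.23 ± 0.16 had an adjusted p of 0.491 in edgeR. EEF1G and EEF2, the translocase gene, had values of -0.38 and -0.28. EEF2K, the kinase that inhibits eEF2, averaged 1.62 CPM in MUT and 1.98 CPM in WT, and its groups overlapped.

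EEF1A1 had 1372, 715 and 1294 CPM in MUT, against 1025, 2264 and 1906 CPM in WT, so that WT replicate 1 fell among the MUT libraries. The log2 fold change of -0.62 ± 0.37 (SE) had an adjusted p of 0.401 in edgeR. Its processed pseudogene EEF1A1P5, an intronless copy of nearly the same sequence, took 1053, 2486 and 1205 CPM in MUT and 1820, 1632 and 1121 CPM in WT. EEF1A1 thus held 55.0%, 19.96% and 50.3% of its family's counts in the MUT libraries and 35.1%, 56.7% and 61.4% in the WT libraries. The lowest shares were those of MUT replicate 2 and WT replicate 1, the libraries with the most ribosomal RNA. With pseudogene counts added, the family stood at 2492, 3581 and 2575 CPM in MUT and 2924, 3995 and 3105 CPM in WT. That sum gave a log2 fold change of -0.21 ± 0.30, at an adjusted p of 0.761 in edgeR.

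**Figure D4:**
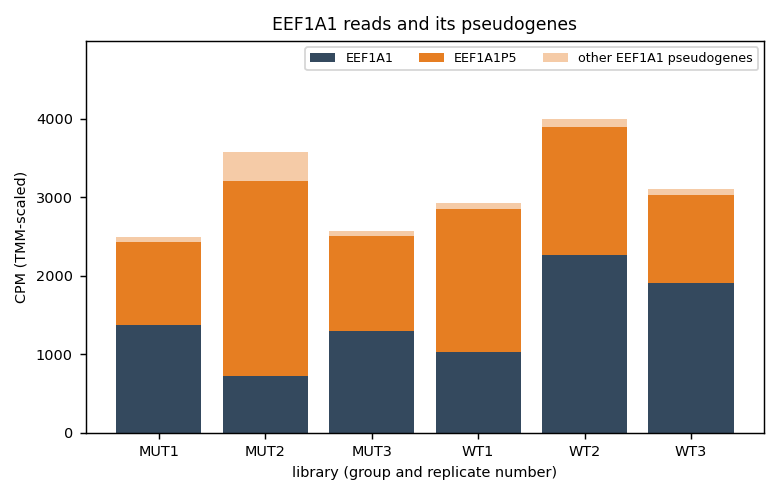
CPM per library (stacked bars, TMM-scaled) assigned to EEF1A1, to its pseudogene EEF1A1P5 and to its other pseudogenes. EEF1A1 holds the smallest share in MUT replicate 2, 19.96%, and in WT replicate 1, 35.1%, and the summed bars overlap between MUT and WT.

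Among the 13 eIF3 subunits, the scaffold on the small subunit, 9 lay below 0 and 4 above it under TMM scaling, with a median of -0.13 (-0.22 without MUT replicate 2). None was called, 4 had non-overlapping groups lower in MUT (EIF3A, EIF3F, EIF3K and EIF3M) and 1 higher (EIF3J), beside 13.4% and 12.8% of all genes. EIF3A, at -0.22 with an unadjusted p of 0.0902 in edgeR, was not matched to a start. With library size alone 8 lay below and 5 above the all-gene median, and on log2(FPKM + 1) 6 lay below it and 7 above. The 4 subunits with an unadjusted p below 0.05 and lower values in MUT, EIF3D, EIF3F, EIF3K and EIF3M, were also the 4 with a pyrimidine start among the 8 eIF3 subunits matched to the promoter table. EIF3F (chr11:7987337-8001852, GRCh38.p14), a subunit with an MPN domain, had 51.4, 44.2 and 42.1 CPM in MUT, against 57.8, 69.8 and 62.5 CPM in WT. Its groups did not overlap, at -0.46 ± 0.14 (SE) with an adjusted p of 0.117 in edgeR, 0.0350 in DESeq2 and 0.0350 to 0.950 over the alternatives. With counts of its pseudogenes added the value was -0.49 ± 0.14.

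EIF3K stood at 66.6, 64.6 and 60.9 CPM in MUT and at 73.5, 94.0 and 81.1 CPM in WT. EIF3M, a subunit with a PCI domain, had 30.1, 34.1 and 28.03 CPM in MUT, against 37.6, 41.6 and 38.8 CPM in WT. Both were without overlap, at log2 fold changes of -0.37 ± 0.14 and -0.36 ± 0.12. EIF3D, a subunit that can itself bind the mRNA cap, had 23.8, 27.3 and 22.0 CPM in MUT, against 27.1, 32.7 and 31.5 CPM in WT, with an overlap at MUT replicate 2 and a value of -0.32 ± 0.13. EIF3J, a loosely bound subunit, had 3.03, 5.05 and 2.89 CPM in MUT, against 2.73, 2.76 and 2.19 CPM in WT. Its difference of 0.51 ± 0.22 rested on MUT replicate 2, without which it was 0.22. EIF3C shares nearly all its sequence with EIF3CL, and the summed counts of both came to 23.3, 25.1 and 23.1 CPM in MUT and 23.1, 23.3 and 22.5 CPM in WT, a difference of 0.05 ± 0.11. That sum was chosen after the data had been seen.

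The remaining eIF3 subunits, EIF3A, EIF3B, EIF3E, EIF3G, EIF3H, EIF3I and EIF3L, had log2 fold changes from -0.44 (EIF3L) to 0.25 (EIF3E). EIF3L averaged 99.3 ± 23 CPM in MUT and 134 ± 23 CPM in WT (SD, n = 3 each). EIF3E was at 158 CPM in MUT replicate 2, against 87.3 and 74.3 CPM in the other MUT libraries and 85.3 to 92.1 CPM in WT, and without that library its value was -0.13. Per transcript length, the subunits' levels spanned a wide range. In WT, EIF3J took 0.0378% and EIF3K 4.17% of the summed TPM of the factors.

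Of the 5 subunits of eIF2B, the factor that recharges eIF2 with GTP and is the target of the integrated stress response, 4 had higher CPM in every MUT than in every WT library. The same held for 12.8% of all genes tested. The median log2 fold change of the 5 was 0.24 (0.26 without MUT replicate 2), none was called, and with library size alone 4 lay above and 1 below the all-gene median. EIF2B4, the delta subunit gene, had 2.63, 3.92 and 3.04 CPM in MUT, against 2.05, 2.44 and 2.19 CPM in WT (0.52 ± 0.17, adjusted p 0.146 in edgeR). EIF2B5, which encodes the catalytic epsilon subunit, had 4.21, 4.85 and 4.58 CPM in MUT, against 3.67, 3.57 and 3.35 CPM in WT (0.36 ± 0.11, adjusted p 0.125 in edgeR). The alpha subunit gene EIF2B1 stood at 6.41, 7.199 and 7.85 CPM in MUT and at 6.397, 5.81 and 5.95 CPM in WT, where MUT replicate 1 and WT replicate 1 were nearly equal. EIF2B2 had a value of 0.20 ± 0.10 and did not overlap. EIF2B3, the gamma subunit gene, overlapped, at 2.71, 2.499 and 2.24 CPM in MUT and 2.18, 2.61 and 2.88 CPM in WT.

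The starts of the eIF2B genes have no pyrimidine run, and 3 of the 5 hold the letters GGAAGTG within the same 30 bases, shown here in capitals to set these starts beside those above.
EIF2B1 (chr12:123633667-123633696, minus strand): gtacGGAAGTGcgccGGAAGTGgggtgcgg
EIF2B2 (chr14:75002911-75002940, plus strand): cgcccgccccGGAAGTGcaaactgtgtggt
EIF2B5 (chr3:184135348-184135377, plus strand): cagcttccttgcGGAAGTGgtgaccgtgag
The same letters, read on both strands (CACTTCC on the other) in the window of 250 bases before to 50 bases after the start, were in 12 of the 39 matched factors (30.8%), in 18.5% of tested genes and in 11.2% of all starts. EIF2B4, whose log2 fold change was the highest of the 5, and EIF2B3 had no match in that window at any listed start. The 11 tested factors with the letters had a median of 0.16, and the 27 without them one of -0.10. Of those 27, 9 were factors with a pyrimidine start, and the other 18 had a median of 0.09, so the contrast overlaps with the grouping by pyrimidine start. The 2025 other genes with the letters had a median of 0.01, beside -0.01 for the 8958 without. These letters were also chosen after values had been seen, and a match is not a binding site.

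For eIF2, the carrier of the initiator tRNA, the groups overlapped for all 3 subunits. EIF2S1, the alpha subunit gene whose serine is phosphorylated in stress, had 7.97, 10.5 and 8.17 CPM in MUT, against 7.73, 8.19 and 6.83 CPM in WT (0.23 ± 0.14, and 0.11 without MUT replicate 2). EIF2S2 had 12.8, 16.8 and 9.96 CPM in MUT, against 15.02, 15.9 and 13.2 CPM in WT, at -0.16 ± 0.19 and at -0.35 without MUT replicate 2. Of the 3 genes it lies on chromosome 20 with EIF6, 1166.7 kb away from it. EIF2S3 stood at 18.6, 20.7 and 20.2 CPM in MUT and at 23.4, 21.5 and 18.8 CPM in WT (-0.10 ± 0.12). The start-selection factors EIF1, EIF1AX and EIF5 were all within overlap. EIF1 had 253, 233 and 231 CPM in MUT, against 251, 267 and 248 CPM in WT, and EIF5, which makes eIF2 hydrolyse its GTP, had 13.9, 17.7 and 15.3 CPM in MUT, against 18.2, 17.9 and 16.9 CPM in WT.

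In the cap-binding group the lowest log2 fold change was that of a helicase gene and the highest that of the scaffold gene. EIF4A2 (chr3:186783577-186789897), one of a pair of eIF4A helicase paralogs, had 17.3, 18.4 and 17.97 CPM in MUT, against 26.7, 25.9 and 22.3 CPM in WT. The MUT libraries lay close together and all below the lowest WT library, at a log2 fold change of -0.48 ± 0.12 (SE) and an adjusted p of 0.0717 in edgeR. A robust edgeR fit gave 0.0411 and DESeq2 0.0221, and over all alternatives the adjusted p of EIF4A2 ran from 0.0221 to 0.944. The robust fit called 3.73% of all genes (1.9% lower in MUT) and DESeq2 5.99% (3.23% lower in MUT). Its paralog EIF4A1 had 152, 123 and 152 CPM in MUT, against 117, 129.6 and 137 CPM in WT, with overlap. EIF4A1 took 90.5%, 88.002% and 90.2% of the summed TPM of the pair in MUT and 82.7%, 84.4% and 87.0% in WT. The difference of 4.88 percentage points had a two-sided exact permutation p of 0.1, the smallest that 3 against 3 libraries allow, and 0.4 after adjustment over 6 paralog pairs.

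EIF4G1 (chr3:184314606-184335358), the scaffold that ties the cap-binding protein to eIF4A and eIF3, had 9.51, 9.13 and 11.4 CPM in MUT, against 7.105, 6.76 and 8.099 CPM in WT. The groups did not overlap, and the value of 0.45 ± 0.13 had an adjusted p of 0.108 in edgeR, 0.0541 without MUT replicate 2 and 0.0541 to 0.336 over the alternatives. EIF2B5 (chr3:184135358-184145311) lies on the same chromosome arm, less than 1 Mb away from it. EIF4G3, the paralog, had 2.91, 2.46 and 2.27 CPM in MUT, against 2.76, 1.97 and 2.77 CPM in WT. EIF4H, which stimulates eIF4A, had 12.8, 14.6 and 14.2 CPM in MUT, against 11.8, 9.74 and 10.4 CPM in WT, without overlap (0.38 ± 0.12, adjusted p 0.137 in edgeR). The cap-binding gene EIF4E itself had a value of 0.01, with overlapping groups. With the counts of its pseudogenes added it stood at 12.9, 17.7 and 14.3 CPM in MUT and at 12.3, 12.9 and 10.5 CPM in WT, without overlap (0.34 ± 0.15, unadjusted p 0.0494 and adjusted p 0.254 in edgeR). EIF4B had a value of -0.12, EIF4G2 0.30 and the poly(A)-binding protein gene PABPC1 one of 0.40, with overlap in all 3. Of the 9 genes of this group 7 lay above 0 under TMM scaling, and the same number above the all-gene median with library size alone.

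EIF4EBP1, the mTOR-regulated inhibitor that holds eIF4E away from eIF4G, had 69.0, 69.7 and 63.2 CPM in MUT, against 89.8, 104.8 and 83.1 CPM in WT. No library of one group reached into the other, at -0.46 ± 0.14 (SE), with an adjusted p of 0.125 in edgeR, 0.0328 in DESeq2 and 0.0328 to 0.930 over the alternatives. EIF4EBP2, its paralog, overlapped, at 5.87, 6.36 and 7.02 CPM in MUT and 7.899, 6.06 and 5.03 CPM in WT. Per length EIF4EBP1 held 99.0% ± 0.13 of the pair's TPM in MUT and 99.3% ± 0.16 in WT.

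**Figure D5:**
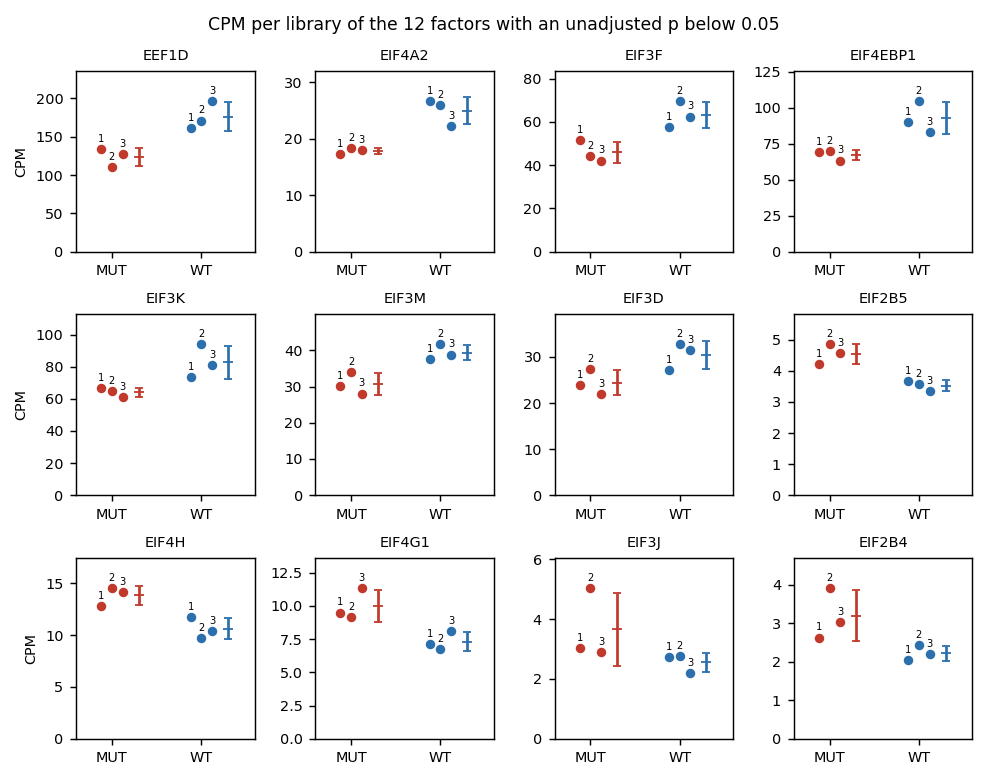
CPM (TMM-scaled, vertical axes from 0) in each library of the 12 factors with an unadjusted p below 0.05, MUT in red and WT in blue, with replicate numbers and the mean and SD of 3 beside them. Except for EIF3D the groups do not overlap; with library size alone the 7 lower factors have log2 fold changes above 0, since the median gene is then at 0.53.

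The 3 joining and reinitiation factors had overlapping groups and a median of 0.28, which was 0.05 without MUT replicate 2. EIF5B had 0.823, 1.87 and 1.04 CPM in MUT, against 0.866, 0.999 and 0.854 CPM in WT, which is 0.47 ± 0.31 with MUT replicate 2 and 0.05 without it. DENR, which with MCTS1 recycles and reinitiates ribosomes, had 3.05, 4.11 and 3.43 CPM in MUT, against 3.77, 2.96 and 1.92 CPM in WT. MCTS1 had 7.503, 8.71 and 4.86 CPM in MUT, against 5.49, 7.53 and 5.58 CPM in WT. The release factor genes overlapped in the case of ETF1, which encodes eRF1, at 17.3, 21.0 and 17.0 CPM in MUT and 18.02, 16.5 and 15.6 CPM in WT. GSPT1, which encodes eRF3, did not overlap, at 7.16, 7.71 and 8.06 CPM in MUT and 7.09, 6.901 and 6.76 CPM in WT, but the difference of 0.14 ± 0.10 had an adjusted p of 0.505 in edgeR.

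For the scaffold pair, EIF4G1 held 76.3% ± 5.5 of its pair's TPM in MUT and 67.2% ± 6.6 in WT (exact permutation p 0.2, 0.4 adjusted), and the difference of 9.10 points was 4.92 on summed counts and 5.52 without WT replicate 1. EEF1A1, beside EEF1A2, its paralog of normal muscle and neurons, held 84.8% ± 4.6 in MUT and 89.1% ± 4.3 in WT (exact permutation p 0.3, 0.45 adjusted). That difference of -4.32 points was -1.67 without MUT replicate 2, -2.45 on summed counts and -0.324 with the TPM of pseudogenes added. EIF5A held 99.8% of its pair in both groups and GSPT1 98.1% in MUT and 97.1% in WT, with exact permutation p of 0.9 and 1.

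A list of 25 other initiation genes held 24 that were tested, and 0 were called in edgeR, with a median of 0.06. At an unadjusted p below 0.05 stood 4 of them, which is 16.7% and not above the 19.6% of all genes. Groups did not overlap for 3 of the 24 higher and 3 lower in MUT, beside 12.8% and 13.4% of all genes. PAIP2, which takes the poly(A)-binding protein off mRNAs, had 10.6, 13.5 and 10.4 CPM in MUT, against 17.4, 17.96 and 14.3 CPM in WT. Its value was -0.52 ± 0.15, with an adjusted p of 0.106 in edgeR, 0.0353 without MUT replicate 2, 0.0433 in DESeq2 and 0.0353 to 0.988 over the alternatives. EIF2A, a non-canonical carrier of initiator tRNA, had 24.1, 32.9 and 22.9 CPM in MUT, against 19.1, 20.9 and 17.4 CPM in WT. These groups did not overlap, at 0.48 ± 0.16 with an adjusted p of 0.149 in edgeR. The genes of both eIF2 phosphatase subunits lay on opposite sides of 0 without passing the edgeR test. PPP1R15A, the stress-induced one, had 2.58, 3.79 and 3.83 CPM in MUT, against 2.14, 2.53 and 2.03 CPM in WT, without overlap. Its value was 0.60 ± 0.18, with an adjusted p of 0.122 in edgeR and 0.0232 to 0.336 over the alternatives, below 0.05 in 1. PPP1R15B, the constitutive one, had 5.91, 5.335 and 7.25 CPM in MUT, against 9.07, 6.94 and 8.79 CPM in WT, with overlap (-0.42 ± 0.15). The eIF2 kinase genes EIF2AK1, EIF2AK2, EIF2AK3 and EIF2AK4 had values between -0.19 and 0.30.

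Of 21 other elongation and termination genes 20 were tested and 0 called, with a median of 0.00. At an unadjusted p below 0.05 stood 3 of these 20, a share also not above the 19.6% of all genes. The list itself consists largely of enzymes that modify elongation factors. DPH3, which helps make diphthamide on eEF2, had 12.5, 12.8 and 10.5 CPM in MUT, against 8.27, 8.59 and 7.52 CPM in WT (0.55 ± 0.12, adjusted p 0.0575 in edgeR, 0.0118 in DESeq2 and 0.0118 to 0.336 over the alternatives). DPH2, of the same pathway, had 11.0, 11.6 and 13.9 CPM in MUT, against 8.53, 9.66 and 8.88 CPM in WT (0.43 ± 0.13, adjusted p 0.112 in edgeR). DHPS, the first enzyme of hypusine synthesis on eIF5A, had 13.1, 12.7 and 12.4 CPM in MUT, against 14.9, 16.7 and 15.9 CPM in WT (-0.31 ± 0.11, adjusted p 0.160 in edgeR). DPH3 had an adjusted p below 0.05 in 5 of the alternatives. None of these 3 had overlapping groups, but they were picked by p, so this is no separate support. Over the 20 genes tested, groups did not overlap for 3 higher and 1 lower in MUT, beside 12.8% and 13.4% of all genes. The other diphthamide genes, DPH1, DPH5, DPH6 and DPH7, had values between -0.28 and 0.62 and unadjusted p above 0.05. The highest was that of DPH1, at 8.25, 16.8 and 7.25 CPM in MUT and 8.29, 6.37 and 6.35 CPM in WT, which was 0.16 without MUT replicate 2. Over the alternatives its adjusted p ran from 0.0108 to 0.600 (edgeR, DESeq2 or limma), below 0.05 in 1.

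The strand setting of the counting is not given in the sources used here. In the GENCODE 29 annotation, 23 of the factors have an exon that overlaps a gene on the opposite strand and 9 one on the same strand, so that their reads could not all be assigned to them with certainty, while 21 overlap none. EIF4A2 overlaps, among others, SNORA4, SNORA63, SNORA81, SNORD2 and MIR1248 on the same strand and RFC4 on the opposite one. EIF4A1 overlaps SENP3-EIF4A1, SNORA48, SNORA67 and SNORD10, among others, on the same strand.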

How the data were processed

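Total RNA gave 3 MUT and 3 WT libraries, and the authors deposited whole-series tables of expected counts, FPKM and TPM by gene symbol. Per the submitters' processing notes, the tools were RSEM 1.2.28, STAR 2.5.2b, DESeq2 1.42.0 and FastQC 0.12.1 and the build hg38 (GRCh38), with no role stated. The expected counts that the authors deposited are whole numbers, so rounding changed none here. FPKM was above 0 in 177 entries whose count was 0, so counts may have been rounded before deposit, and how is not given in the sources used here. Deposited FPKM and TPM values are, by their definition, scaled for depth and transcript length, and the TPM also served for levels and paralog shares. An estimator such as RSEM divides reads that fit several near-identical genes.

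The counts were fitted with edgeR 4.0.16 under R 4.3.3 (filterByExpr with a minimum count of 10 and a total of 15, TMM, glmQLFit and glmQLFTest, no covariate), over all genes, with Benjamini-Hochberg adjustment. Standard errors are the size of the log2 fold change over the square root of F. CPM are relative to TMM-scaled library sizes. Alternatives used DESeq2 1.42.0 and limma 3.58.1, with pseudocounts of 1 and 0.1 on log2 values and a minimum of 1 in 3 libraries. For paralog shares a two-sided exact permutation test was used. Matches of promoter letters used Python 3.11.15. The labels name no pairing, so the fit has no block. A check of same-numbered libraries, given below, does not settle whether they are paired.

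The 48 genes, the lists and the tests were chosen with earlier results of these data known. Values per library are given for factors with an unadjusted p below 0.05, for the highest and lowest log2 fold change and the highest TPM of each role, and for paralog pairs, and for up to 4 other pathway genes a list by p. Lists are described by counts and medians, with no test. Ribosome profiling was not analysed here.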

Additional observations from a re-analysis of the deposited data

How the results depend on the processing

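The number of factors called was 0 in all alternatives except DESeq2, with 4 (EEF1D, EIF3F, EIF4A2 and EIF4EBP1, all lower in MUT), and the robust edgeR fit, with 1 (EIF4A2). All genes called numbered 283, but 462 with at least 1 CPM in 3 libraries, 764 by DESeq2, 103 with library size alone, 1195 with no low-count filter, 552 in the robust fit, and by limma 13 on log2(FPKM + 1), 10 on log2(TPM + 0.1) and 21 on log2(TPM + 1). Leaving out each library gave 27 to 442, with 442 without MUT replicate 2, 40 without MUT replicate 1 or 3, and 30, 27 and 61 without WT replicate 1, 2 and 3. The factors' median of -0.04 moved to 0.50 with library size alone, and to 0.37 on log2(FPKM + 1), 0.48 on log2(TPM + 0.1) and 0.34 on log2(TPM + 1), where the all-gene medians were 0.53, 0.33, 0.49 and 0.36. The 12 factors with an unadjusted p below 0.05 kept their sign in the other alternatives, while in these 4 scalings the 7 lower ones were above 0. The TPM share of EIF5A, -0.00485 points in MUT minus WT, had the other sign without MUT replicate 2 or 3 or WT replicate 2 or 3 (0.00195 to 0.0111). It was -0.0276 without MUT replicate 1 and -0.0458 on summed counts. That of GSPT1, 1.08 points, turned to -0.317 on summed counts and to -0.239 without WT replicate 3, in a range up to 2.93 without MUT replicate 3. That of EIF4EBP1, -0.268 points, was -2.31 on summed counts. The causes were not tested. With the replicate number as a block, 296 genes and 0 factors were called and the median was -0.06. The correlations of same-numbered libraries' deviations were -0.61, -0.24 and 0.42 for numbers 1, 2 and 3. Deviations from a mean of 3 libraries depend on each other, so these values do not settle whether the numbers pair the libraries. Low counts limit EIF5B and GSPT2, and 3 libraries a group limit every test.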

Other observations

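Reads of some intronless copies of the factors were divided differently in MUT replicate 2 than in the other libraries. EIF3EP3, a copy of EIF3E, had 1503, 9 and 1221 counts in the MUT libraries and 755, 1481 and 871 in the WT libraries, while EIF3E itself was highest in MUT replicate 2. Of the copies of EEF1A1, EEF1A1P6 had 181, 19650 and 220 counts in MUT and 4636, 361 and 114 in WT, and EEF1A1P19 had 6, 10811 and 8 counts in MUT and 169, 27 and 7 in WT. WT replicate 1, which held the second highest share of ribosomal RNA, had the highest WT counts of both EEF1A1 copies. With counts of the copies added, EIF3E had a log2 fold change of 0.17 ± 0.21, against 0.25 ± 0.26 for EIF3E alone. The cause of the different division was not tested.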
